A study of Mus musculus with 4 samples.

Results

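Hyaluronan is a long sugar polymer of the extracellular matrix, and 9 genes of its handling were examined in lymphatic endothelial cells of the newborn mouse lung. The genes are Lyve1, Cd44, Stab1 and Stab2, which encode cell surface receptors, Has1, Has2 and Has3, which encode the synthases, and Hyal1 and Hyal2, which encode hyaluronidases. They were chosen by name for their role, with earlier results of these data known. Each has 1 row among the 24421 rows of the count table. Of the 9 members, 7 passed the filter on low counts and were tested. Has1 and Has2 did not pass.

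Hyaluronan is made at the plasma membrane by synthases that push the growing chain out of the cell, and it is cut by hyaluronidases at the surface and in lysosomes. Lymphatic vessels take up hyaluronan from tissue fluid and carry it to lymph nodes. Lyve1 is a standard marker of lymphatic endothelium, and its protein binds hyaluronan through a Link domain, the same kind of domain that Cd44 uses. Both receptors are known for tying hyaluronan-coated leukocytes or matrix to cell surfaces, and some tissue macrophages carry Lyve1 too.

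The cells were sorted from lungs at postnatal day 0 as negative for CD45, a leukocyte protein, and positive for CD31, an endothelial protein, and for GFP. The Jun-cKO mice had the genotype Prox1-CreER;Junf/f;Rosa26-mTmG, with both alleles of Jun floxed. The Jun-Ctrl mice were Prox1-CreER;Junf/+;Rosa26-mTmG, with 1 floxed allele. Both groups therefore carried the tamoxifen-dependent Cre under Prox1, which acts only in cells that express Prox1, the membrane reporter and at least 1 floxed Jun allele, and the sources used here do not give the tamoxifen schedule. From 3 to 5 mice were pooled for a group. The design text says that cells of 3 replicates were mixed before the RNA was amplified. Each group had 2 libraries (n = 2 in all that follows), called replicate 1 and replicate 2, of which replicate 2 is the one with the word replicate in its title. Nothing says that they came from separate animals or sorts, so the spread behind each p-value is that of these libraries and may be technical.

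Total counts were 15558476 and 6911821 in the Jun-cKO libraries and 16037416 and 6483514 in Jun-Ctrl libraries, so replicate 1 was the deeper library in both groups. Jun, the targeted gene, was counted at 523.8 and 474.5 CPM in the Jun-cKO libraries, against 472.0 and 432.8 CPM in Jun-Ctrl libraries (CPM gives counts per 1000000 of a library's total, scaled by the TMM method). Its log2 fold change, Jun-cKO over Jun-Ctrl, was 0.14 (SE 0.12, adjusted p = 0.354 from the quasi-likelihood test of edgeR, Benjamini-Hochberg adjusted), and it was 0.40 (adjusted p = 0.00377) after a correction for GC content. Jun RNA was therefore not lower in the libraries labelled Jun-cKO, and these are called Jun-cKO-labelled below. Jun has 1 annotated transcript, with 1 exon (GENCODE M21). Which part of the gene is floxed is not given in the sources used here, and all directions rest on the label. Why Jun RNA was not lower was not tested. Prox1 was at 34.2 and 31.9 CPM in the Jun-cKO-labelled and at 39.3 and 43.6 CPM in Jun-Ctrl libraries, and Pecam1, the CD31 gene, was at 647.4 and 645.9 CPM against 539.1 and 572.5 CPM. Ccl21a, a lymphatic chemokine gene, was at 0 in all 4 libraries.

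Across the 4 receptors, 1 rose and 2 fell with the Jun-cKO label. Lyve1 was the highest of the 9 genes by far and rose 1.53-fold, while Cd44, at a low level in these libraries, fell to 0.303 of its Jun-Ctrl level. Stab1 fell to 0.754 of that level, a call that was lost with a correction for GC content or without Jun-Ctrl replicate 2, which left 2 members lower. Stab2 did not pass the test. Among the enzymes, Hyal2 fell to 0.618 of its Jun-Ctrl level, and Hyal1 and Has3 did not pass. In all, 4 of the 7 tested members passed, where 41.5% of all genes tested did. Of these, 1 rose, where 19.0% of the 12656 genes tested rose, and 3 fell, where 22.5% of all genes tested fell. The groups did not overlap for these 4 genes, of which 1 lay above and 3 below. Over all genes tested, 35.4% had both Jun-cKO-labelled libraries above both Jun-Ctrl libraries and 35.9% had both below. The median log2 fold change of the 7 members was -0.09, against 0.01 over all genes tested. Over all genes, 5251 were called, 2408 higher and 2843 lower. Leaving out Jun-Ctrl replicate 1 gave a total of 2992, and leaving out Jun-Ctrl replicate 2 gave 3425. Scaling to pan-endothelial genes, chosen after seeing the data, left 25.1% of the calls higher in place of 45.9%.

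**Figure D1:**
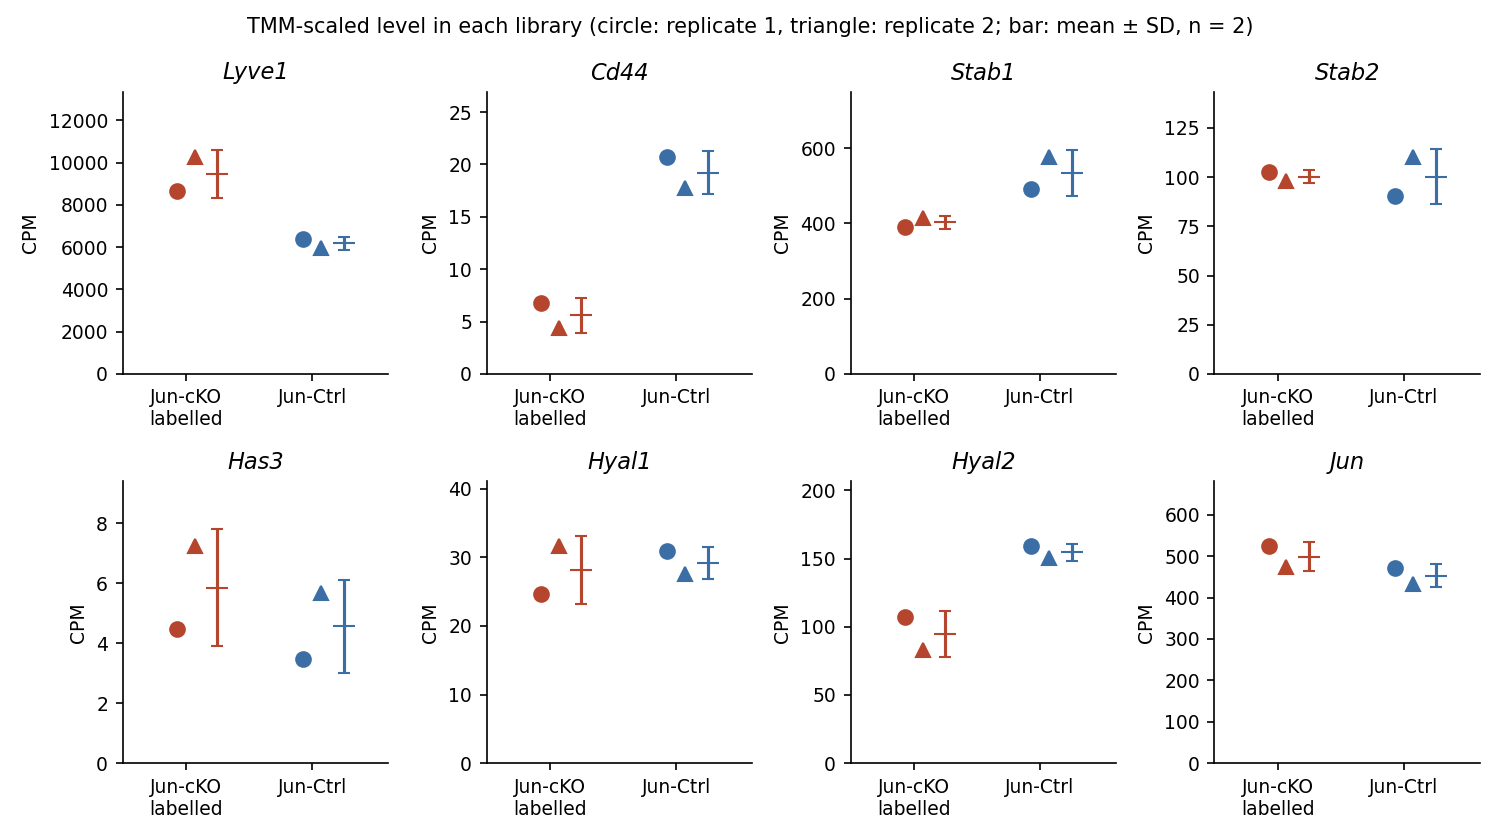
Level in CPM (vertical axes, each starting at 0) of the 7 tested members and of Jun in each library, with Jun-cKO-labelled libraries in red and Jun-Ctrl libraries in blue. Circles are replicate 1, triangles replicate 2, and bars the mean ± SD (n = 2). For Lyve1 both red points, at 8640.6 and 10259.9 CPM, lie above both blue points, and for Cd44, Stab1 and Hyal2 both red points lie below.

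Lyve1 spans 110850607 to 110863239 of chromosome 7 (GRCm38, minus strand), with 6 exons in its longest coding transcript. It had 131861 and 69495 counts in Jun-cKO-labelled libraries and 105558 and 39030 counts in Jun-Ctrl libraries. That equals 8640.6 and 10259.9 CPM in Jun-cKO-labelled libraries, against 6401.6 and 5971.4 CPM in Jun-Ctrl libraries. The groups did not overlap, and the Jun-cKO-labelled libraries lay further apart than the Jun-Ctrl libraries. The means were 9450.3 ± 1145.0 CPM and 6186.5 ± 304.2 CPM (SD), and the log2 fold change was 0.61 (SE 0.15, adjusted p = 0.000712, edgeR). The 95% interval of the fold was 1.25 to 1.87. Between the libraries called replicate 1 alone the fold was 1.35, and between those called replicate 2 it was 1.72. Ranked by CPM among all rows, Lyve1 was the 3rd and the 2nd most counted gene in Jun-cKO-labelled libraries and the 6th in both Jun-Ctrl libraries. The rise was also called in all 15 alternative fits, with log2 fold changes of 0.46 to 0.73 and adjusted p-values up to 0.0379.

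The rise of Lyve1 was not shared by all lymphatic genes. Of 11 tested genes of the lymphatic endothelial list, 3 rose and 2 fell, where 19.0% of all genes tested rose and 22.5% fell. The median log2 fold change of the 11 was 0.04. Mmrn1, a secreted glycoprotein gene, was at 3469.1 and 3420.9 CPM in the Jun-cKO-labelled and at 2606.5 and 2145.0 CPM in Jun-Ctrl libraries, and Reln, which encodes the signal protein reelin, was at 3086.6 and 2487.8 CPM against 1674.3 and 1561.8 CPM. Both rose, with log2 fold changes of 0.54 and 0.78 (adjusted p = 0.0014 and 7.03e-06, edgeR). The 2 that fell were Flt4 and Itga9. Flt4 stood at 1201.4 and 896.9 CPM against 1676.8 and 1499.2 CPM, with a log2 fold change of -0.60 (adjusted p = 0.000356, edgeR). Itga9 stood at 192.2 and 191.9 CPM against 239.4 and 271.6 CPM, with a log2 fold change of -0.41 (adjusted p = 0.0037, edgeR). GC content was 42.3% for Mmrn1, 51.1% for Reln, 56.5% for Flt4 and 51.6% for Itga9. Tested genes in bins of 2 percentage points centred on 43%, 51% and 57% GC had median log2 fold changes of 0.192, -0.006 and -0.302. The part of GC content in the changes of these 4 genes was not tested. Thy1 was at 1480.0 and 1269.8 CPM against 1413.8 and 1672.7 CPM and was not called. Of 8 genes listed as pan-endothelial markers, 2 rose and 1 fell, where 19.0% of all genes tested rose and 22.5% fell. Set against the summed CPM of these 8 genes, Lyve1 stood at 287.2% and 332.8% in Jun-cKO-labelled libraries. It stood at 239.5% and 211.9% in Jun-Ctrl libraries, again without overlap.

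Cd44 encodes the widely expressed hyaluronan receptor that also binds osteopontin and is shed by surface proteases. It spans 102811141 to 102901665 of chromosome 2 (GRCm38, minus strand), and its 9 annotated transcripts, which differ in the variant exons, cannot be told apart in counts per gene. It had 103 and 30 counts in Jun-cKO-labelled libraries and 341 and 116 counts in Jun-Ctrl libraries. Its levels were 6.75 and 4.43 CPM in Jun-cKO-labelled libraries, against 20.7 and 17.7 CPM in Jun-Ctrl libraries. The groups lay well apart, with the higher Jun-cKO-labelled library below the lower Jun-Ctrl library. The means were 5.59 ± 1.64 and 19.2 ± 2.07 CPM, and the log2 fold change was -1.72 (SE 0.21, adjusted p = 2.48e-09, edgeR). The 95% interval of the ratio of Jun-cKO-labelled to Jun-Ctrl was 0.227 to 0.403, and the ratio was 0.326 between the replicate 1 libraries and 0.25 between the replicate 2 libraries. All 15 alternative fits called the fall, with log2 fold changes of -2.14 to -1.52. In bulk RNA, fewer cells of a type and less RNA per cell cannot be told apart.

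Other cells of the lung also express Cd44, and most called markers of such cells were lower too. Over all genes tested, 22.5% fell and 19.0% rose. Of 18 lung epithelial markers, all tested, 16 fell and none was called higher by edgeR, and their summed level was 228.2 and 219.5 CPM in Jun-cKO-labelled libraries, against 1811.2 and 1906.2 CPM in Jun-Ctrl libraries. Sftpc, a surfactant gene, was at 112.3 and 115.6 CPM against 1266.8 and 1333.2 CPM. Of 14 leukocyte genes other than the macrophage list, 8 were tested and 5 fell, and their sums were 160.3 and 138.0 CPM against 362.3 and 335.8 CPM. Of the 14, 5 were at 0 in both Jun-cKO-labelled libraries and 3 in both Jun-Ctrl libraries. Over all genes, 14928 and 14186 had a count in Jun-cKO-labelled libraries, against 16297 and 15156 in Jun-Ctrl libraries. Zeros were therefore more common in Jun-cKO-labelled libraries for genes in general. Ptprc, which encodes CD45, was at 3.60 and 2.95 CPM in the Jun-cKO-labelled and at 8.49 and 7.96 CPM in Jun-Ctrl libraries. Of 15 fibroblast and muscle genes, 14 were tested, 7 fell and 1, Postn, rose, with sums of 3041.4 and 2683.4 CPM against 3332.2 and 2753.1 CPM. Fn1, the fibronectin gene, was not called and held most of these sums. Without Fn1 and Postn, left out after their values were seen, the sums were 156.0 and 162.7 CPM against 380.7 and 388.9 CPM. Of 8 mesothelial genes, 5 were tested, 2 fell and 1 rose, and of 12 blood endothelial genes, 9 were tested, 4 fell and 3 rose. The part of these cells in the Cd44 result was not tested.

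A window of 250 bases upstream of the Cd44 start site is shown because the targeted factor, Jun, forms part of AP-1, a dimer that binds TGANTCA, and Cd44 had the largest change in size among the 7 members tested. RefSeq windows (GRCm38.p6) were matched for 6 of the 9 members, Cd44, Stab1, Stab2, Has1, Hyal1 and Hyal2. TGANTCA reads the same on both strands and stood in none of the 6, where 6.75% of 32851 windows of that length hold it. This says only that these letters are not in these windows. The Cd44 window is chr2:102901666-102901915, minus strand, with no motif in capitals.
Cd44: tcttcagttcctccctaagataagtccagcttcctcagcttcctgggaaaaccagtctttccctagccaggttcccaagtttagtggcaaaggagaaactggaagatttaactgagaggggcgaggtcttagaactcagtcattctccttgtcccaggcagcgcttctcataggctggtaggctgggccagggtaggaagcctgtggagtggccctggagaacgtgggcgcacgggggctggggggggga

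Stab1 encodes stabilin 1, a large scavenger receptor of sinusoidal and lymphatic endothelium and of macrophages. It spans 31139013 to 31168641 of chromosome 14 (GRCm38, minus strand). Its levels were 389.9 and 415.0 CPM in Jun-cKO-labelled libraries, against 491.3 and 576.0 CPM in Jun-Ctrl libraries. The groups did not overlap, though the gap between them was of the order of the spread between the Jun-Ctrl libraries. The log2 fold change was -0.41 (SE 0.12, adjusted p = 0.00554, edgeR). The call was lost when Jun-Ctrl replicate 2 was left out, at -0.31 (adjusted p = 0.141). It was also lost with the GC correction, at -0.04 (adjusted p = 0.812). Stab1 has a GC content of 57.3% in its longest transcript, and the 1920 tested genes within 2 percentage points of it had a median log2 fold change of -0.31, with 41.1% of them lower. Its upstream window is shown as the second of the 3 genes that fell (chr14:31168642-31168891, minus strand, no motif in capitals).
Stab1: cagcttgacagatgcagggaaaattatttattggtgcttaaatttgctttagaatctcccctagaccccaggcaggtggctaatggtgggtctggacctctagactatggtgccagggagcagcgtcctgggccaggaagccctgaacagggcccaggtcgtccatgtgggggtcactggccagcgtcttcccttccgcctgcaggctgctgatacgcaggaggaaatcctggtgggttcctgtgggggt

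Stab2 encodes stabilin 2, the main scavenger receptor for circulating hyaluronan in liver sinusoids. It spans 86841198 to 87008025 of chromosome 10 (minus strand). Its levels were 102.5 and 98.0 CPM in Jun-cKO-labelled libraries and 90.3 and 110.2 CPM in Jun-Ctrl libraries, so that the Jun-cKO-labelled values lay between the others. The log2 fold change was 0.01 (SE 0.12, adjusted p = 0.951, edgeR), and the 95% interval of the fold was 0.852 to 1.19. Per length, Stab1 exceeded Stab2 3.87 and 4.31 times in Jun-cKO-labelled libraries and 5.54 and 5.32 times in Jun-Ctrl libraries.

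Macrophages express Stab1, and in part Lyve1 and Cd44, so their markers are given beside the receptors. Of 16 macrophage genes, 12 were tested, 8 fell and 1 rose (edgeR, adjusted p under 0.05), with a median log2 fold change of -1.14. Over all genes tested, 22.5% fell and 19.0% rose. The summed level of the 16 genes was 318.9 and 320.5 CPM in Jun-cKO-labelled libraries and 345.6 and 344.9 CPM in Jun-Ctrl libraries. The largest single share of that sum was Mrc1, a mannose receptor gene, which rose, at 245.7 and 243.7 CPM against 169.8 and 141.4 CPM. Without Mrc1, a gene left out after its values were seen, the sums were 73.3 and 76.8 CPM against 175.7 and 203.5 CPM. C1qa, C1qc and Cd163 were at 0 in both Jun-cKO-labelled libraries, and none of the 16 genes was at 0 in both Jun-Ctrl libraries. These 3 genes were not tested and were near the floor in Jun-Ctrl libraries too. They had 6 and 2, 18 and 2, and 16 and 3 counts there. Fewer genes of any kind had a count in Jun-cKO-labelled libraries. Adgre1, Aif1 and C1qb were tested and not called, with log2 fold changes of 0.38, 0.41 and -0.58. The part of macrophages in the changes of Lyve1, Cd44 and Stab1 was not tested.

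**Figure D2:**
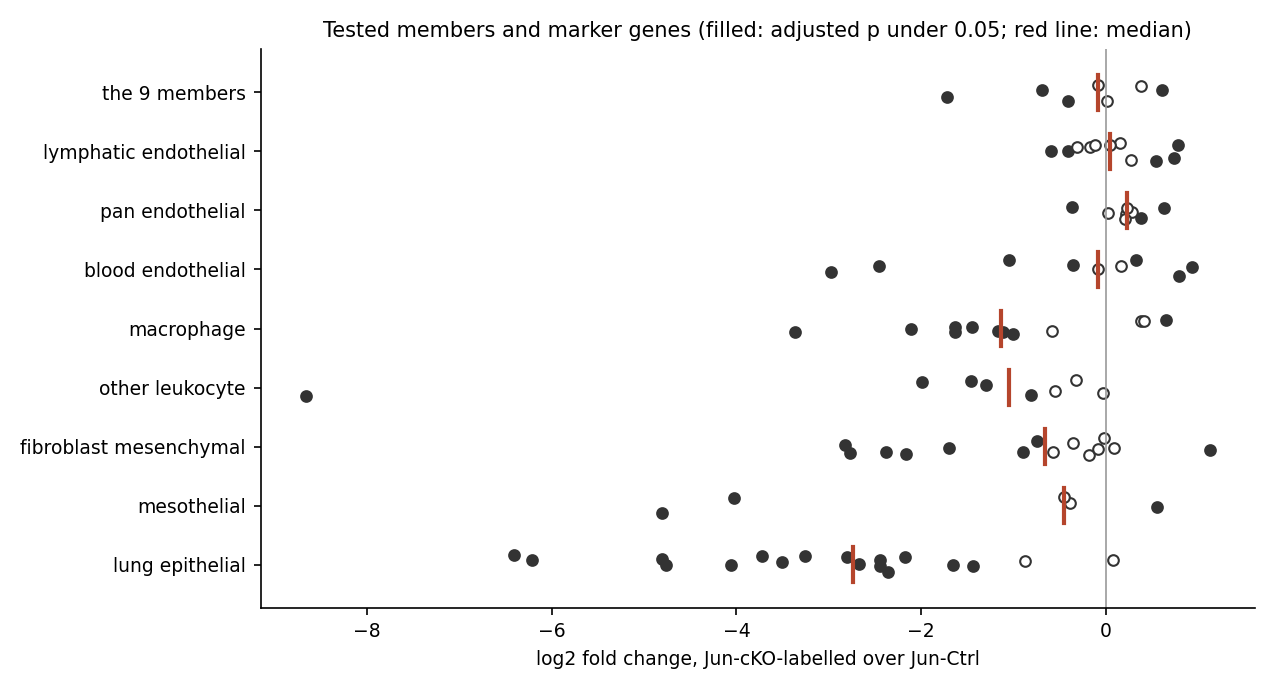
Log2 fold change, Jun-cKO-labelled over Jun-Ctrl (horizontal axis), of the 7 tested members and of the tested genes of 8 marker lists, with 1 point a gene, filled where called and with the list median as a red line. The median lies at -0.09 for the members, at -2.74 for lung epithelial and at -1.14 for macrophage genes. The leukocyte point furthest to the left is Cpa3, which had 0 counts in both Jun-cKO-labelled libraries, so that its fitted value is no estimate of size.

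The synthases were weakly expressed. Has1, on chromosome 17, had 3 and 1 counts in Jun-cKO-labelled libraries and 5 and 1 counts in Jun-Ctrl libraries. Has2, the synthase that mouse embryos need for heart development, on chromosome 15, had 0 and 0 counts in Jun-cKO-labelled libraries and 2 and 3 counts in Jun-Ctrl libraries. With 3 counts as the limit that a count of 0 allows in a library, Has2 could be at up to 0.197 and 0.443 CPM in Jun-cKO-labelled libraries, which covers counting error only. No difference was detectable for Has1 or Has2 at this depth, and no fold is given. Has2os, the antisense partner of Has2, was at 0 in all 4 libraries.

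Has3, whose product makes shorter chains than the other synthases in cell culture, was the only synthase tested. It lies on the plus strand of chromosome 8 (106870242 to 106884566). It was at 4.46 and 7.23 CPM in Jun-cKO-labelled libraries and at 3.46 and 5.66 CPM in Jun-Ctrl libraries. The groups overlapped, and in both of them replicate 2 was the higher library. The log2 fold change was 0.38 (SE 0.29, adjusted p = 0.304, edgeR), and the 95% interval of the fold, 0.869 to 1.95, spans a fall and a rise. Has3 shares 352 exon bases with Chtf8 on the opposite strand, and Chtf8 rose (log2 fold change 0.52, adjusted p = 0.00429). Without strand, their shared reads cannot be told apart. The window upstream of Has1 is shown because it alone of the 6 held the related motif TGACGTCA, in capitals, which dimers of Jun with ATF proteins can bind and which 1.55% of the windows hold (chr17:17855189-17855438, minus strand).
Has1: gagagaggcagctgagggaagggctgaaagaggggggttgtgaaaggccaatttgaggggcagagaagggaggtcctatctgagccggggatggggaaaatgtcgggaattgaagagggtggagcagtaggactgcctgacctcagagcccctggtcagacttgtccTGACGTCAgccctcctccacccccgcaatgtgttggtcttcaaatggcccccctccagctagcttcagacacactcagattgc

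Hyal2 encodes a hyaluronidase that is held at the cell surface by a lipid anchor and cuts long chains. It spans 107567945 to 107572779 of chromosome 9 (GRCm38, plus strand). Its levels were 106.9 and 83.0 CPM in Jun-cKO-labelled libraries, against 159.0 and 150.1 CPM in Jun-Ctrl libraries. The groups did not overlap, and the Jun-cKO-labelled libraries varied more. The log2 fold change was -0.69 (SE 0.12, adjusted p = 8.46e-06, edgeR), with a ratio of 0.672 between the replicate 1 libraries and of 0.553 between the replicate 2 libraries. The call was made in all 15 alternative fits, and the size was smallest after GC correction (log2 fold change -0.46, adjusted p = 0.00146). The GC content of Hyal2 is 55.2%, and the 2475 genes of like GC content had a median log2 fold change of -0.21. The window upstream of its RefSeq start, which lies inside the GENCODE gene span, completes the 3 genes that fell (chr9:107568913-107569162, plus strand, no motif in capitals).
Hyal2: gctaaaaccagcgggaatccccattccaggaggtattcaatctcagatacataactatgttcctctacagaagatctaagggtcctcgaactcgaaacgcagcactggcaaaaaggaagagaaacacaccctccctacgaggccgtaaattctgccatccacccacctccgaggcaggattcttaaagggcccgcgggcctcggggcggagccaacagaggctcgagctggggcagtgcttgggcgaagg

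Hyal1 encodes the lysosomal hyaluronidase that degrades the fragments taken up. It lies just downstream of Hyal2 on the same strand (chromosome 9, 107576927 to 107581710). It was at 24.6 and 31.6 CPM in Jun-cKO-labelled libraries and at 30.9 and 27.5 CPM in Jun-Ctrl libraries. The groups overlapped, and the log2 fold change was -0.09 (SE 0.16, adjusted p = 0.681, edgeR), with a 95% interval of the fold of 0.757 to 1.17. Its count is uncertain, since it shares 1920 exon bases with Naa80 and 159 with Hyal3 on the same strand, and reads in shared bases could be split or dropped by the counting.

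**Figure D3:**
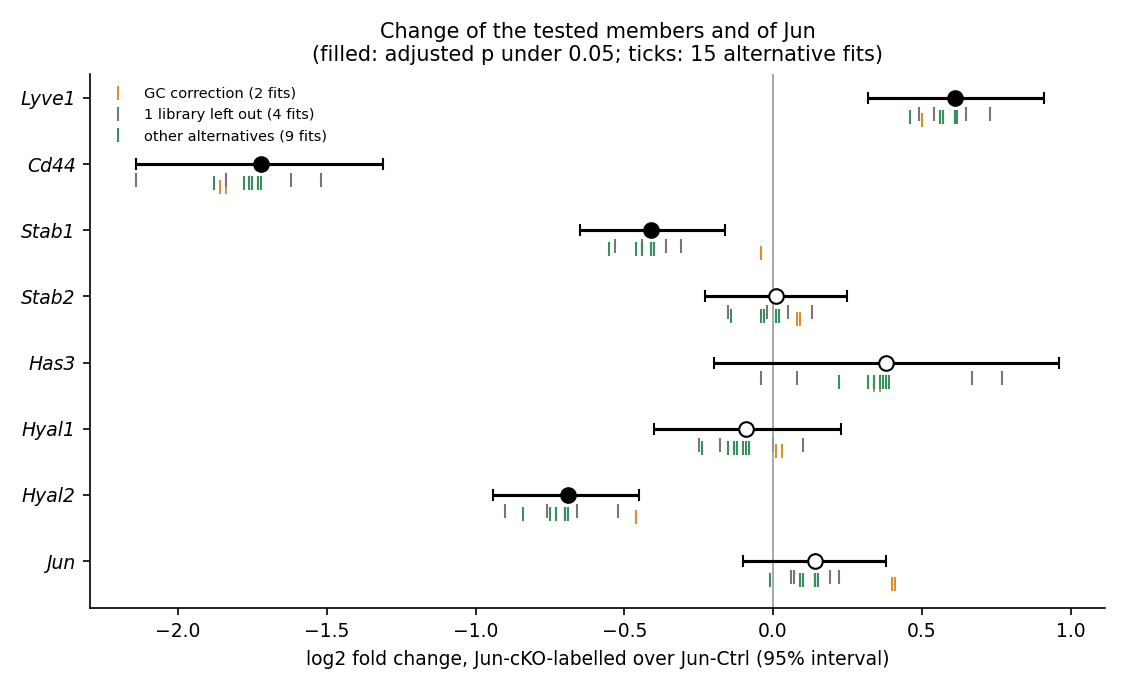
Log2 fold change, Jun-cKO-labelled over Jun-Ctrl (horizontal axis), of the 7 tested members and Jun, with 95% intervals. Filled points passed an adjusted p of 0.05, and ticks below each point are 15 alternative fits. The ticks of Lyve1, Cd44 and Hyal2 all lie on 1 side of 0, and the GC-corrected ticks of Stab1 lie at -0.04.

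**Figure D4:**
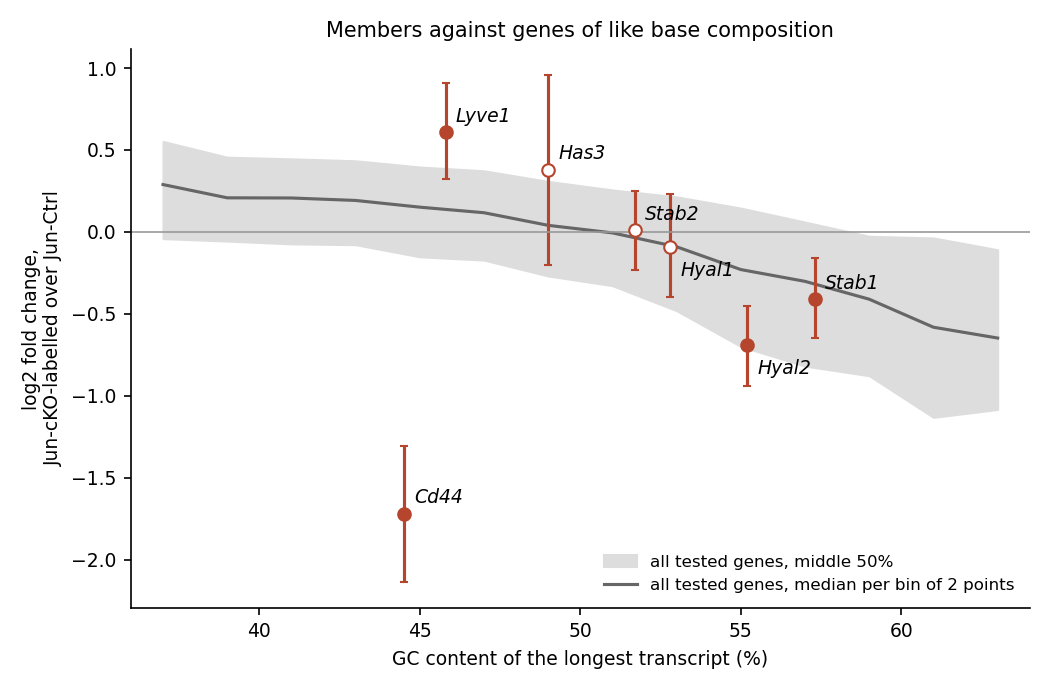
Log2 fold change of the 7 tested members (points with 95% intervals, filled where called) against the GC content of the longest transcript, over the median and middle 50% of all tested genes in bins of 2 percentage points. The median falls with GC content, Stab1 lies near it, and Cd44, at 44.5% GC, lies far below it.

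Log2 fold changes were lower at higher GC content across genes (Spearman's rho = -0.336 across 12561 genes, and genes are no independent replicates). Cd44 and Lyve1 have GC contents of 44.5% and 45.8%. The 2472 tested genes within 2 percentage points of Cd44 had a median log2 fold change of 0.16, and 12.0% of them were lower. The 2663 genes near Lyve1 had a median of 0.14, and 24.4% of them were higher. With the GC correction the log2 fold change was -1.84 for Cd44 (adjusted p = 8.79e-09) and 0.50 for Lyve1 (adjusted p = 0.00446).

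Levels of different genes were compared as CPM per kilobase, with the gene length in the table, and whether reads covered transcripts evenly is not known from counts per gene. Lyve1 averaged 3625.0 CPM per kilobase in the Jun-cKO-labelled and 2373.0 in Jun-Ctrl libraries. Hyal2 and Stab1 came next, at 51.3 and 50.3 CPM per kilobase in Jun-cKO-labelled libraries, where their ranges overlapped, and at 83.6 and 66.8 in Jun-Ctrl libraries, where they did not. Hyal1 and Stab2 followed, at 12.9 and 12.3 CPM per kilobase against 13.4 and 12.3, and their ranges overlapped in both groups. Cd44 and Has3 were both at 0.989 CPM per kilobase in Jun-cKO-labelled libraries, while Cd44 stood above Has3 in Jun-Ctrl libraries, at 3.40 and 0.771. Has1 and Has2 were last in both groups. The level of Lyve1 per length was 2776.0 and 5023.1 times that of Cd44 in Jun-cKO-labelled libraries and 671.2 and 729.6 times in Jun-Ctrl libraries.

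The genes whose levels moved most like those of Lyve1 across the 4 libraries, among 3850 genes of at least 50 CPM, were Clk1, Snn, Mpzl1, Tmem165 and Elavl1. Their distance from Lyve1, the Euclidean distance of centred log2(CPM + 1) values, ran from 0.0248 to 0.0402. Nearest to Cd44 were Arhgap27, Shank3, Cenpb, S100a9 and Lsmem1, at distances of 0.198 to 0.294. With 4 libraries many genes lie close together, and the distances only describe these libraries. Cd44 itself lay below the limit of 50 CPM, so genes at its own level were not among the candidates. Arhgap27, the nearest to Cd44, was at 66.4 and 53.9 CPM in Jun-cKO-labelled libraries and at 185.8 and 180.4 CPM in Jun-Ctrl libraries. Shank3 was at 32.6 and 23.6 CPM against 108.4 and 95.2 CPM, and Cenpb at 42.1 and 29.1 CPM against 109.5 and 117.8 CPM. S100a9, a neutrophil gene and the 4th nearest, was at 86.4 and 69.8 CPM against 224.9 and 207.8 CPM. Lsmem1 was at 155.8 and 134.6 CPM against 419.4 and 433.0 CPM. The 1 added before the log2 shrinks the change of Cd44, at its low level, more than theirs.

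Other genes of hyaluronan biology went both ways. Of 52 listed names, 51 had a row and 35 were tested, of which 14 rose and 9 fell, where 19.0% of all genes tested rose and 22.5% fell. The median log2 fold change was 0.17, against 0.01 over all genes tested. With the GC correction 11 were called higher, and 13 with the replicate block added to it. The number that rose was 9 without Jun-Ctrl replicate 2 and 9 with scaling to pan-endothelial genes. Among 3 tested receptors, the layilin gene Layn rose, averaging 22.2 ± 3.93 CPM in the Jun-cKO-labelled and 13.9 ± 0.219 CPM in Jun-Ctrl libraries without overlap (log2 fold change 0.65, adjusted p = 0.00254, edgeR). Hmmr, which encodes a hyaluronan-binding protein of the mitotic spindle, fell, at 4.32 and 3.54 CPM against 6.31 and 7.04 CPM.

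Of 5 further turnover genes tested, 1 rose and 1 fell. Hexa, a gene of lysosomal sugar breakdown, rose, at 184.6 and 176.1 CPM in the Jun-cKO-labelled and 133.9 and 146.0 CPM in Jun-Ctrl libraries (log2 fold change 0.37, adjusted p = 0.00807, edgeR). Cemip, whose protein binds hyaluronan and promotes its depolymerisation, fell, at 4.06 and 4.72 CPM in the Jun-cKO-labelled and 10.9 and 9.49 CPM in Jun-Ctrl libraries (log2 fold change -1.26, adjusted p = 3.04e-05, edgeR). Tmem2, which encodes a surface hyaluronidase in the mouse, was the most counted of these genes, at 340.9 and 263.7 CPM against 316.9 and 267.4 CPM, and was not called. Gusb, the lysosomal glucuronidase gene, was at 70.5 and 62.7 CPM against 64.3 and 53.4 CPM and was not called. Hyal4, Hyal5, Hyal6 and Spam1 were at 0 in all 4 libraries.

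Of 12 genes that make the sugar precursors, 5 rose and 2 fell. The phosphoglucomutase gene listed as Pgm1 rose by 1.43 on the log2 scale (SE 0.13, adjusted p = 5.26e-13, edgeR), at 127.5 and 163.7 CPM in the Jun-cKO-labelled and 57.5 and 49.1 CPM in Jun-Ctrl libraries. Pgm2, Uap1, Ugdh and Ugp2 rose by 0.68, 0.78, 0.44 and 0.34 on the log2 scale. Ugdh and Uap1 encode enzymes of the UDP-glucuronate and UDP-N-acetylglucosamine routes, the 2 substrates of the synthases. The symbols Pgm1 and Pgm2 have each served for the other gene, and they are used as listed. The hexokinase genes Hk1 and Hk2, which open sugar use in general, fell by 0.67 and 0.91 on the log2 scale. GC content was 39.1% for Ugp2, 42.9% for Ugdh and 56.4% for Hk1. Tested genes in bins centred on 39%, 43% and 57% GC had median log2 fold changes of 0.208, 0.192 and -0.302. Pgm2, Uap1, Pgm1 and Hk2 lay between, at 46.7%, 48.1%, 49.7% and 51.9% GC. The part of GC content in these changes was not tested. Gpi1 was at 165.5 and 153.2 CPM against 154.3 and 160.0 CPM and was not called.

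Of 17 genes of hyaluronan-binding matrix proteins, 7 were tested, 4 rose and 1 fell. Itih3, a heavy chain that becomes bound to hyaluronan, rose, at 29.8 and 32.0 CPM in the Jun-cKO-labelled and 14.3 and 13.3 CPM in Jun-Ctrl libraries (log2 fold change 1.15, adjusted p = 1.94e-07, edgeR). Hapln1, a link protein gene, was at 165.8 and 165.8 CPM against 107.8 and 97.6 CPM, and Ptx3, a pentraxin that joins hyaluronan complexes, was at 185.9 and 168.3 CPM against 113.6 and 106.9 CPM, and both rose. Tnfaip6, whose product transfers the heavy chains to hyaluronan, fell, at 1.51 and 0.738 CPM against 4.37 and 4.90 CPM (log2 fold change -1.87, adjusted p = 4.99e-05, edgeR). The Jun-cKO-labelled level of Tnfaip6 rests on 23 and 5 counts.

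Of 9 genes tied to Cd44, 8 were tested, 3 rose and 4 fell. Moesin, which links the Cd44 tail to actin, is encoded by Msn, which rose, at 353.7 and 377.7 CPM in the Jun-cKO-labelled and 220.1 and 194.6 CPM in Jun-Ctrl libraries (log2 fold change 0.81, adjusted p = 2.1e-07, edgeR). Ezr, the ezrin gene, was at 71.7 and 65.4 CPM against 77.1 and 76.0 CPM and was not called. Mmp14, a membrane protease that can shed Cd44, fell, at 161.7 and 121.2 CPM against 258.5 and 269.7 CPM (log2 fold change -0.89, adjusted p = 6.87e-08). Adam10, another protease that can shed Cd44, rose, at 330.7 and 344.9 CPM against 259.7 and 226.6 CPM (log2 fold change 0.47, adjusted p = 0.00104). Spp1, which encodes the Cd44 ligand osteopontin, had 4 and 1 counts in Jun-cKO-labelled libraries and 36 and 25 counts in Jun-Ctrl libraries (adjusted p = 2.63e-06). Esrp1, an epithelial regulator of Cd44 splicing, had 3 and 0 counts in Jun-cKO-labelled libraries and 62 and 20 counts in Jun-Ctrl libraries (adjusted p = 3.1e-08). The lung epithelial markers, at sums of 228.2 and 219.5 CPM against 1811.2 and 1906.2 CPM, moved with Esrp1, and their part in it was not tested.

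**Figure D5:**
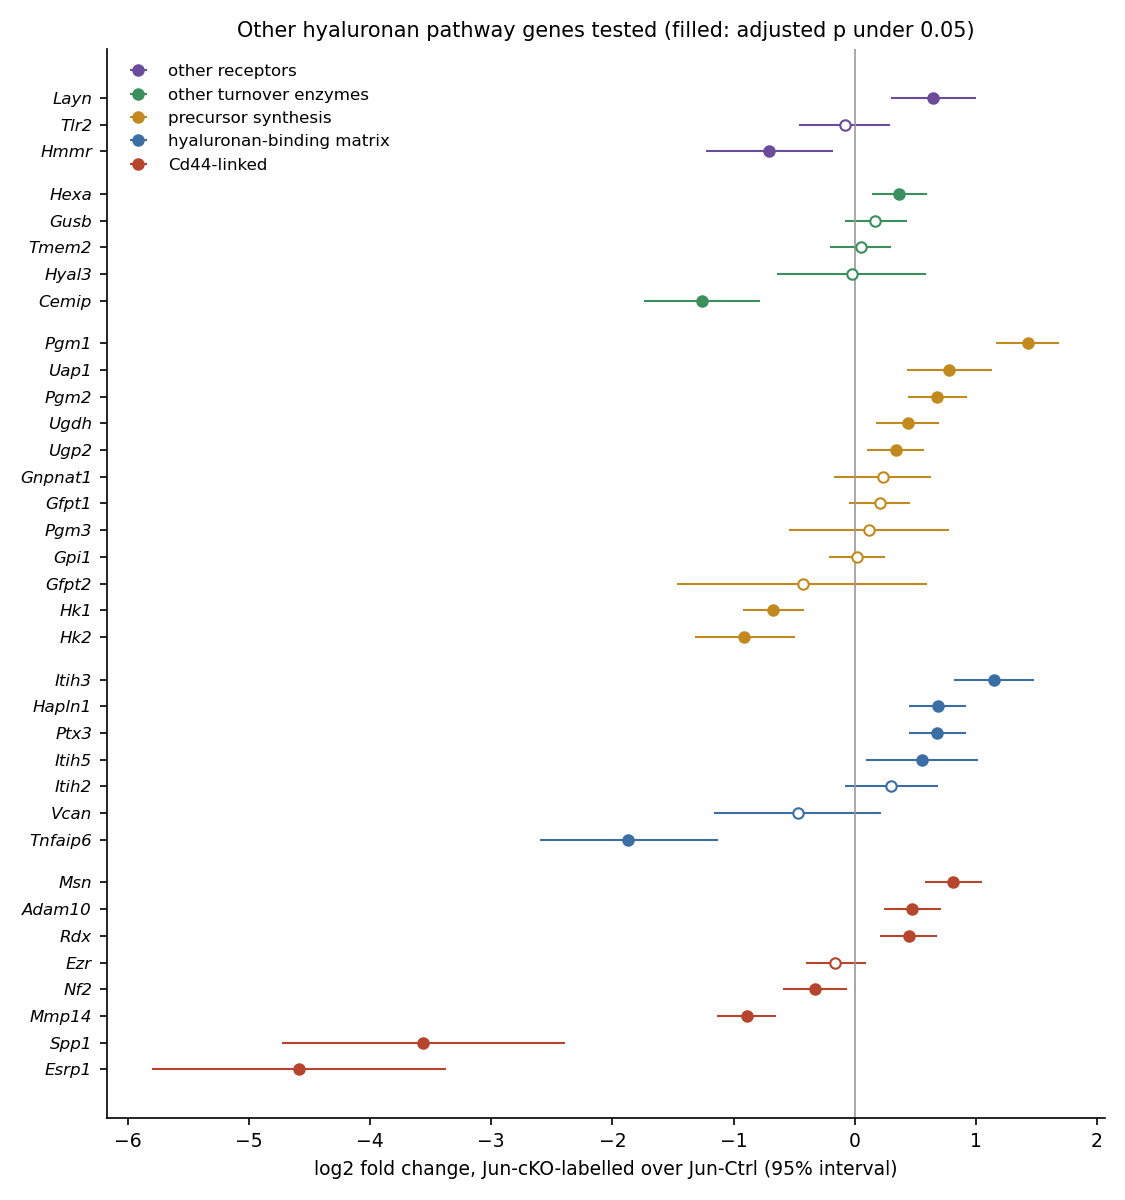
Log2 fold change, Jun-cKO-labelled over Jun-Ctrl (horizontal axis, with 95% intervals), of the 35 tested genes of hyaluronan biology other than the members, by group, filled where the adjusted p was under 0.05. Of these, 14 filled points lie above 0 and 9 below. The Esrp1 point rests on 3 counts in Jun-cKO-labelled libraries.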

How the data were processed

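Raw counts of reads for each gene, beside a gene length, were deposited with 1 column a library, per the file headers. The genome build mm10 and the tools STAR 2.7.2a, edgeR 3.28.1 and featureCounts 1.6.4 are listed, with no role stated, per the submitters' processing notes. The RNA was amplified and the library kit does not mark strand, per the labels' protocols. Neither the annotation nor the strand setting of the counting is stated in those notes.

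Counts were tested here with the quasi-likelihood functions of edgeR 4.0.16 (R 4.3.3), glmQLFit and glmQLFTest, after TMM scaling and filterByExpr, which left 12656 genes, as Jun-cKO minus Jun-Ctrl with no block. P-values were adjusted over all of these genes (Benjamini-Hochberg), and a gene was called at an adjusted p under 0.05. SEs are the log2 fold change divided by the root of F. The fit was checked on simulated counts with few changed genes, independent libraries and no GC trend. These data had many calls and a GC trend, so that check covers the running of the fit and not the calls. The members, lists and alternatives were chosen with earlier results of these data known. Named genes are Jun, the members, the called pathway genes of smallest p (at most 6 in each direction), 4 uncalled ones by CPM, up to 3 markers of a list by CPM, and the 5 genes nearest to Lyve1 and to Cd44. Prox1, Ccl21a, Flt4, Itga9, Ptprc, Layn, Hmmr, Hexa, Hk2, Uap1, Ugdh, Ugp2, Chtf8 and Has2os were named outside that rule. So were C1qa, C1qb, C1qc, Cd163, Adgre1, Aif1, Cpa3, Adam10, Hyal3, Nat6, Nt5dc2, Spam1 and Hyal4 to Hyal6. GENCODE M21 (GRCm38) gave positions, exon numbers and GC content, with a GC value for 99.2% of tested genes, and upstream windows from RefSeq (GRCm38.p6).

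Alternatives were scaling by library totals, by upper quartiles or by the size factors of DESeq2, limma-voom (limma 3.58.1), the Wald test of DESeq2 1.42.0, a minimum of 50 counts in 2 libraries, no filter, the title word replicate as a block, each library left out, and a loess correction for GC content (span 0.5), alone and with the block. Scaling to the 8 pan-endothelial genes was added after seeing the data. No 2 libraries of a group were alike within sampling noise: the chi-square of a gene had a median of 1.59 for the Jun-cKO pair and 1.27 for the Jun-Ctrl pair, where sampling alone gives 0.455.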

Additional observations from a re-analysis of the deposited data

How the results depend on the processing

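The calls of Lyve1, Cd44 and Hyal2 were made in all 15 alternatives run, and Stab2, Has3 and Hyal1 were called in none. With GC correction, alone and with the replicate block, the log2 fold change of Stab1 was -0.04 (adjusted p = 0.812) and -0.04 (adjusted p = 0.766), that of Hyal1 was 0.03 and 0.01, and that of Jun was 0.40 (adjusted p = 0.00377) and 0.41 (adjusted p = 0.000119). Stab2 was at -0.03 with upper-quartile scaling, -0.04 with library totals, -0.03 with the filter of 50 counts and -0.14 with scaling to pan-endothelial genes, where Jun was at -0.01 and the median of all genes at -0.15. The number of genes called higher was 1564 with the DESeq2 Wald test and 1256 with scaling to pan-endothelial genes, which left 9 pathway genes higher. With each library left out in turn, the genes called ran from 2992 to 4794, those higher from 1177 to 2214 and those lower from 1815 to 2656, and the pathway genes called higher from 9 to 14. The log2 fold change then ran from -0.53 to -0.31 for Stab1, from -0.15 to 0.13 for Stab2, from -0.04 to 0.77 for Has3 and from -0.25 to 0.10 for Hyal1. The causes of these shifts were not tested.

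The replicate numbers rest on a word in the titles of the replicate 2 libraries. Libraries of the same number were also alike in depth. Replicate 1 had total counts of 15558476 (Jun-cKO) and 16037416 (Jun-Ctrl), and replicate 2 had 6911821 and 6483514. Whether such libraries were prepared together is not stated. The deviations of the libraries called replicate 1 from their group means correlated at 0.0677 over genes. The replicate block alone gave 5426 called genes and changed no call of a member, with log2 fold changes of 0.61 for Lyve1, -1.75 for Cd44, -0.40 for Stab1 and -0.70 for Hyal2. In the fits that leave out a library, the lone library of its group is assumed to vary like those of the other group. The depth limits Has1 and Has2, at no more than 5 counts a library, and Has3, at 37 to 68.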

Other observations

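Values of neighbouring genes of the hyaluronidase cluster on chromosome 9 were as follows. Hyal2 was at 106.9 and 83.0 CPM in Jun-cKO-labelled libraries and at 159.0 and 150.1 CPM in Jun-Ctrl libraries and fell (adjusted p = 8.46e-06, edgeR). The row Nat6, an older name of Naa80, which overlaps Hyal1, was at 25.5 and 24.1 CPM in the Jun-cKO-labelled and at 30.0 and 30.6 CPM in Jun-Ctrl libraries, and differed by -0.28 on the log2 scale (SE 0.15, adjusted p = 0.134). Hyal3 was at 3.41 and 3.69 CPM against 3.52 and 3.67 CPM, and differed by -0.02 on the log2 scale (SE 0.31, adjusted p = 0.958). Whether Hyal2 differs from its neighbours was not tested, and the interval of Hyal3 is wide.

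Nt5dc2, which shares 112 exon bases with Stab1 on the opposite strand, was at 3.41 and 7.38 CPM in the Jun-cKO-labelled and at 6.73 and 7.19 CPM in Jun-Ctrl libraries, with no call (adjusted p = 0.149, edgeR), a small count beside the 389.9 CPM or more of Stab1.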
